A study of Mus musculus with 6 samples.

Results

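The genes described here are 41 genes of DNA replication. They were followed in cultures of mouse bone marrow transduced with BCR-ABL, with or without a mutation of the transcription factor Ikaros. The genes were chosen by name for their textbook roles in origin licensing, fork synthesis, nucleotide supply, entry into S phase and chromatin assembly. The choice was made with earlier results of these data known. These genes make up 41 of the 22098 gene symbols in the expression table. All 41 were in the table and all 41 passed the filter on low values. The cells came from whole bone marrow of C57BL/6 mice, transduced at day 0 with a retrovirus carrying BCR-ABL p185 and a YFP reporter, and grown in culture. BCR-ABL is a fusion tyrosine kinase that transforms B-lineage progenitors, and every library, wild type included, carries it. The 3 genotypes were Ikaros_ZnF4-/-, which lacks the fourth zinc finger of Ikaros (ZnF4 mutant below), Ikaros_ZnF1-/-, which lacks the first (ZnF1 mutant), and wild type. Poly(A) RNA of each genotype was sequenced at day 21 and day 28 of culture, in 1 library per genotype and day (n = 2 per genotype). Whether both days of a genotype were drawn from one culture is not given in the labels, so p-values measure only the spread between these libraries, which may be technical.

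Before a cell copies its DNA, the origin recognition complex, Cdc6 and Cdt1 load the MCM2-7 helicase onto replication origins, a step called licensing. In S phase the helicase is switched on with GINS and Mcm10, the sliding clamp PCNA is placed on DNA by the RFC loader, and DNA polymerases alpha, delta and epsilon copy both strands. The genes of this machinery are known to be transcribed mainly in late G1 and S phase under E2F factors, and cyclin E drives entry into S phase. Their transcripts are therefore abundant in cycling cells such as transformed lymphoid progenitors and scarce in resting cells. Ikaros is known as a tumour suppressor of B cell acute lymphoblastic leukaemia and as a restraint on the proliferation of lymphoid progenitors.

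Values are RPKM as deposited, that is reads scaled to transcript length and library size, and the read depth is unknown. Differences are on the log2(RPKM + 1) scale, mutant minus wild type, given with the standard error of a limma model of genotype and day over all 6 libraries. A gene was called when its Benjamini-Hochberg adjusted p over all 11379 tested genes was below 0.05. Adjusted p-values below come from that fit. Between 10401 and 11233 symbols reached 1 RPKM in a library. Ikzf1, the gene mutated here, had 186.0 and 165.9 RPKM in the ZnF4 libraries, 108.0 and 91.4 RPKM in the ZnF1 libraries, and 78.7 to 89.2 RPKM in wild type, and whole-transcript values do not check which finger is missing. The 10 pro-B cell markers, among them Cd79a, Pax5 and Ebf1, were present in every library and summed to 3122 and 2805 RPKM in the ZnF4 libraries, 2801 and 2810 RPKM in the ZnF1 libraries, and 2927 and 2694 RPKM in wild type, each at day 21 and then day 28. The sum hides markers that moved. Cd24a was called lower in both mutants (-0.73 ± 0.11 in the ZnF4 mutant and -0.99 ± 0.11 in the ZnF1 mutant). In the ZnF4 mutant Igll1 and Vpreb2 were called higher (0.54 ± 0.11 and 0.57 ± 0.10), and Igll1 alone had 1124.8 and 1005.9 RPKM in the ZnF4 libraries, 756.8 and 704.6 RPKM in the ZnF1 libraries, and 810.6 and 663.0 RPKM in wild type. Of the 10, the other 7 were called in neither mutant.

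The data turn on a group of genes that moved together, so the 250 bases upstream of the annotated start are shown for 5 of them. Mcm5 and Mcm6 are subunits of the replicative helicase, Cdc6 helps to load it, Pola1 is the catalytic subunit of the polymerase that starts DNA chains, and Ccne1 is cyclin E1. The sequences are from the RefSeq promoter table of GRCm38.p6, written 5′ to 3′ on the strand of the gene. Capitals mark matches to an E2F octamer. The windows lie at chr8:75109259-75109508 (plus strand) for Mcm5, chr1:128359706-128359955 (minus strand) for Mcm6, chr11:98907901-98908150 (plus strand) for Cdc6, chrX:93632156-93632405 (minus strand) for Pola1 and chr7:38107491-38107740 (minus strand) for Ccne1.
Mcm5: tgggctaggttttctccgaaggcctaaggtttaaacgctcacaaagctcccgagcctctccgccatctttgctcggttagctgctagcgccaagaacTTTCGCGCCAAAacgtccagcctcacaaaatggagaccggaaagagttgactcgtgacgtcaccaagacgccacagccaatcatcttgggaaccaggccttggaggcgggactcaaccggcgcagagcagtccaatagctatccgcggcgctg
Mcm6: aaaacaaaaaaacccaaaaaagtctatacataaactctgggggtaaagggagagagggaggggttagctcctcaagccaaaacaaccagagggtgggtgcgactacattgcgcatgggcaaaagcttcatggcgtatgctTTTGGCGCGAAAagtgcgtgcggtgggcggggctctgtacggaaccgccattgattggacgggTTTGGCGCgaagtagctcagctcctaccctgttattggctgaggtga
Cdc6: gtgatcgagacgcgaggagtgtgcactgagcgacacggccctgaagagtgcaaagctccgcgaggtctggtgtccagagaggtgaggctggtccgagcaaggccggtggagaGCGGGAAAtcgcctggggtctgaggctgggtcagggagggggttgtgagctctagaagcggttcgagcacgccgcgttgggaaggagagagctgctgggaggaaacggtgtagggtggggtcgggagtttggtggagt
Pola1: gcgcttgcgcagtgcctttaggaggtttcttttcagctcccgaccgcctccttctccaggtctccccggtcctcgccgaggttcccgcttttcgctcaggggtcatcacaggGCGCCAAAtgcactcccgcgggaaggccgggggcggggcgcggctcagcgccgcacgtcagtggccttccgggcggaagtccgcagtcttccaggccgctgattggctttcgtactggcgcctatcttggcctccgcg
Ccne1: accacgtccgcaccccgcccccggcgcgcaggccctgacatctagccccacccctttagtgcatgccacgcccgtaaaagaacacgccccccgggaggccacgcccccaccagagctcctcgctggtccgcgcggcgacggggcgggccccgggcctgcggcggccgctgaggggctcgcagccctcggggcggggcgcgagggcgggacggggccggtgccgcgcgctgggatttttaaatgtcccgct

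The 4 octamers searched were TTTGGCGC, TTTCCCGC, TTTGCCGC and TTTCGCGC, on both strands, in windows of 300 bases that run from 250 bases before to 50 after each start. Mcm5 had 2 matches that overlap, TTTCGCGC and GCGCCAAA, whose first bases lie 153 and 149 bases upstream of the start. Mcm6 had 3, of which TTTGGCGC and GCGCGAAA overlap at 110 and 106 bases upstream and a further TTTGGCGC lies 47 bases upstream. Cdc6 and Pola1 had 1 each, GCGGGAAA and GCGCCAAA, both 138 bases upstream, and the Ccne1 window held none of these letters. Of the 41 genes, 34 matched the promoter table by symbol, with 41 windows. The genes without an entry were Mcm4, Gins1, Gins2, Rfc2, Prim2, Pole and Ccne2. An E2F octamer was found in 12 of the 41 windows (29.3%), against 4.07% of the windows of all tested genes and 2.26% of all 32851 windows in the table. The 12 genes with a match were Cdc6, Cdt1, Mcm3, Mcm5, Mcm6, Mcm7, Rfc3, Pola1, Pold1, Pole2, Lig1 and E2f2. CCAAT, the motif bound by NF-Y, was in 58.5% of the members' windows and 37.9% of those of tested genes. TGGGAA, the core that Ikaros recognises, was in 41.5% of the members' windows and 23.1% of those of tested genes. It was in 23.7% of the windows of the further replication genes and 20.0% of those of the mitosis genes, lists described below. In the same order, these 2 lists had an E2F octamer in 35.6% and 6.67% of their windows. CCAAT was in 44.1% and 86.7% of them. Any link of these letters to the differences was not tested. Median GC content was 61.3% in the members' windows and 60.7% in those of tested genes. The median ZnF1 difference was -0.44 over the 12 genes with an octamer and -0.40 over the 22 genes whose windows held none. These medians were 0.19 and 0.22 in the ZnF4 mutant. A match describes letters in a window and not a bound site.

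The replication genes were lower in the ZnF1 mutant almost throughout, and mostly somewhat higher in the ZnF4 mutant, than in wild type. In the ZnF1 mutant 34 of 41 were called lower and 0 higher, while 15.2% of all tested genes were called lower and 22.9% higher. Their differences had a median of -0.41, against -0.02 over all tested genes, and 40 of 41 lay below 0 (52.3% of all tested genes). Of the 41, 7 were called higher in the ZnF4 mutant (17.1%, against 10.9% of all tested genes) and 0 lower (7.32% of all tested genes). The ZnF4 differences had a median of 0.21, against 0.02 over all tested genes, and 37 of 41 lay above 0 (52.9% of all tested genes). Both comparisons share the wild type libraries.

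Summed over the 41 genes, the level was 2769 and 2748 RPKM in the ZnF4 libraries at day 21 and day 28, 1739 and 1873 RPKM in the ZnF1 libraries, and 2377 and 2426 RPKM in wild type. The sums of the 3 genotypes did not overlap, with the ZnF4 mutant highest and the ZnF1 mutant lowest. Relative to wild type of the same day, the sum was 1.16 and 1.13 times as high in the ZnF4 mutant and 0.732 and 0.772 times as high in the ZnF1 mutant. Within each day the median difference of the members was 0.23 at day 21 and 0.18 at day 28 in the ZnF4 mutant, and -0.46 and -0.37 in the ZnF1 mutant. Both libraries of the ZnF1 mutant lay below both wild type libraries for 35 of 41 members (33.4% of all tested genes did so). Both libraries of the ZnF4 mutant lay above both of wild type for 31 members (30.9% of all tested genes). The members are well expressed, with a median mean level of 40.45 RPKM against 11.22 RPKM over all tested genes.

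The calls against wild type rest on few libraries. Without the day 21 or day 28 wild type library, 1 and 2 of the 41 members were called lower in the ZnF1 mutant, and without the day 21 or day 28 ZnF1 library, 3 and 11, when the lone library left was taken to vary like the other groups. The share of all tested genes called lower then was 1.17%, 1.1%, 1.66% and 4.1%. Leaving out either ZnF4 library gave 35 (17.8% and 17.9% of all tested genes). The direction held better than the call, with median differences of -0.34 to -0.47 over these 6 settings. As for the ZnF4 mutant, 0 members were called higher without either wild type library or without the day 28 ZnF4 library, while 2.09% to 2.73% of all tested genes were. Without the day 21 ZnF4 library 2 members were called higher (3.41% of all tested genes), and without the day 21 or day 28 ZnF1 library also 2 (8.56% and 8.67%), so that their share was near or below that of all tested genes in these fits. The medians over the 6 settings were 0.15 to 0.25.

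**Figure D1:**
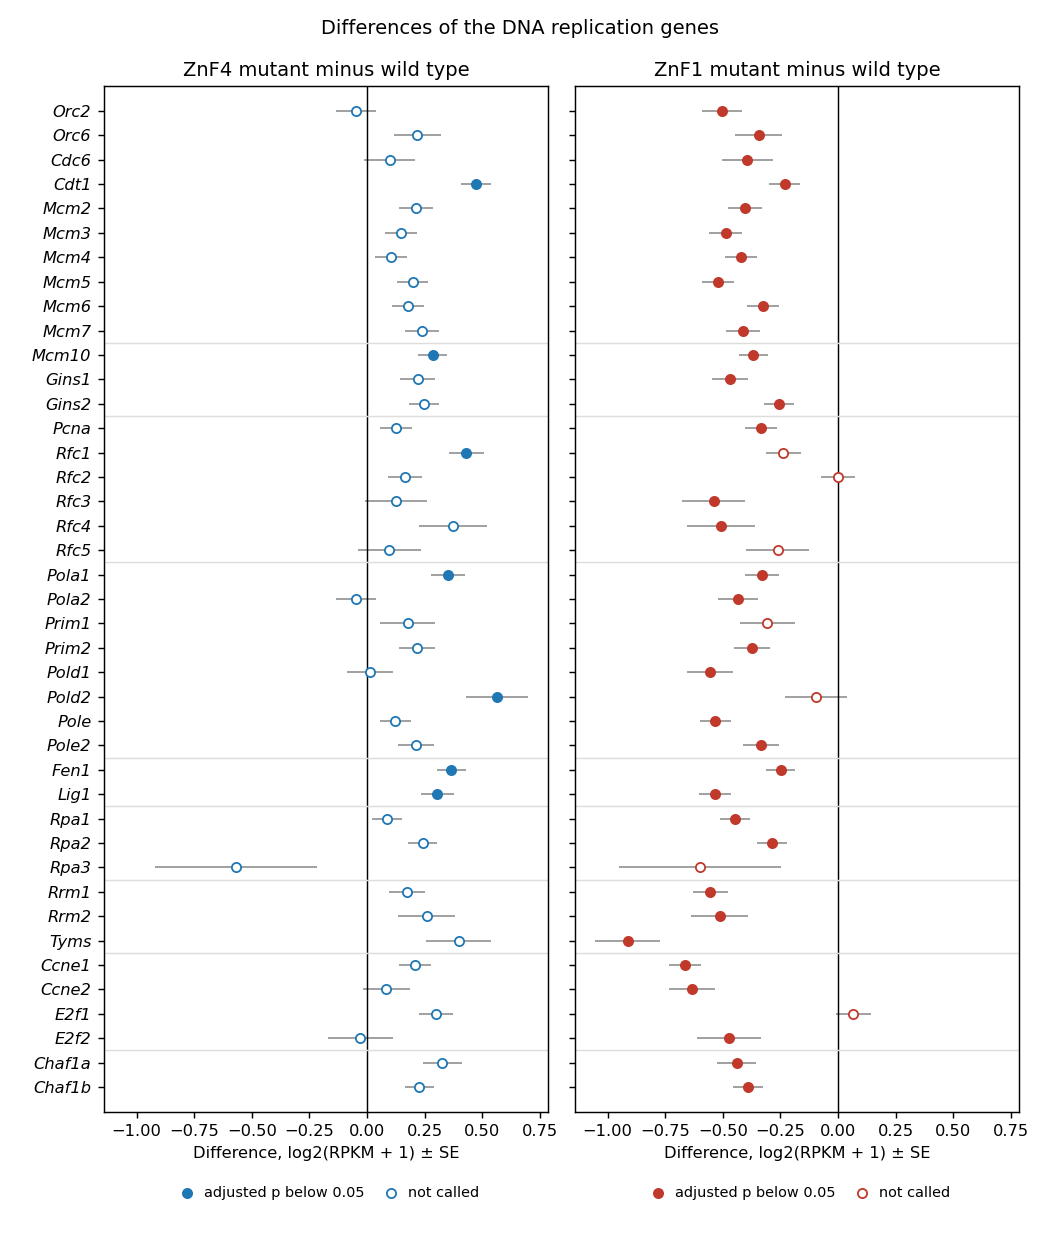
Difference from wild type on the log2(RPKM + 1) scale for each of the 41 genes, with the ZnF4 mutant left and the ZnF1 mutant right. Points are limma estimates from 6 libraries, bars are standard errors and filled points have an adjusted p below 0.05: 7 filled points lie right of 0 in the ZnF4 panel and 34 left of 0 in the ZnF1 panel.

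**Figure D2:**
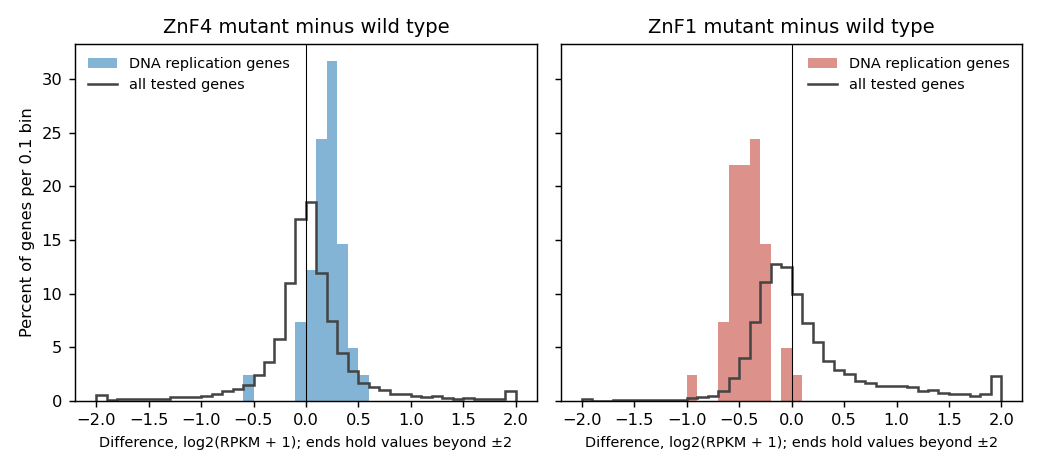
Share of genes per bin of 0.1 on the log2(RPKM + 1) difference from wild type, for the ZnF4 mutant (left) and the ZnF1 mutant (right). Filled bars are the 41 DNA replication genes and the line is all 11379 tested genes: the genes' medians lie at 0.21 and -0.41, those of all tested genes at 0.02 and -0.02.

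Markers of other cells moved with genotype as well. All 12 macrophage markers measured were called higher in the ZnF1 mutant (22.9% of all tested genes), with a median difference of 2.27. In the ZnF4 mutant 8 of the 12 were called lower (7.32% of all tested genes), with a median of -0.80. Their summed level was 220.2 and 286.3 RPKM in the ZnF4 libraries, 2198 and 2072 RPKM in the ZnF1 libraries, and 552.9 and 349.8 RPKM in wild type, and none of the 12 was at 0. Of 11 tested markers of stroma and endothelium, 10 were called higher in the ZnF1 mutant, all of them stromal, and 5 lower in the ZnF4 mutant. The shares of all tested genes are those just given. Pecam1, the 1 endothelial marker tested, did not pass in the ZnF1 mutant (0.05 ± 0.08, adjusted p = 0.616) and was among the 5 in the ZnF4 mutant (-0.95 ± 0.08, adjusted p = 0.0022). Cdh5, an endothelial marker of the list that did not pass the filter on low values, was not tested. It had 0.8 and 1.3 RPKM in the ZnF4 libraries, 0.4 and 0.5 RPKM in the ZnF1 libraries, and 0.1 RPKM in wild type. The sums of the list were 35.3 to 38.5 RPKM in the ZnF4 libraries and 217.2 to 221.2 RPKM in the ZnF1 libraries. They were 58.4 to 72.3 RPKM in wild type. Elane, Mpo and Ltf of granulocytes, Cd3e, Cd3g and Cd8a of T cells and Hba-a1 of erythroid cells were listed at 0 in all 6 libraries. Other markers of these lists were detected and moved with genotype. Cd4 had 0 and 0.1 RPKM in the ZnF4 libraries, 8.5 and 7.2 RPKM in the ZnF1 libraries, and 0.4 and 0.2 RPKM in wild type, and was called higher in the ZnF1 mutant (2.77 ± 0.13, adjusted p = 0.001). Lck had 16.9 and 15.8 RPKM in the ZnF4 libraries, 11.7 and 30.5 RPKM in the ZnF1 libraries, and 36.3 and 46.7 RPKM in wild type, and was called lower in the ZnF1 mutant (-1.08 ± 0.32, adjusted p = 0.0495). S100a8 of granulocytes had 0.1 and 0.3 RPKM in the ZnF4 libraries, 1.2 and 2.1 RPKM in the ZnF1 libraries, and 0.4 and 0.1 RPKM in wild type, and was called higher in the ZnF1 mutant (1.07 ± 0.21, adjusted p = 0.0155). The other markers of granulocytes, T cells and erythroid cells measured stayed below 1 RPKM in every library. The part of other cells in the lower or higher levels of the replication genes was not tested. In bulk RNA, fewer cycling cells and less of a transcript per cell cannot be told apart. Scaling all libraries to the 10 pro-B markers, with factors of 0.958 to 1.06, left 24 members called lower in the ZnF1 mutant (8.2% of all tested genes) with a median of -0.33, and 6 called higher in the ZnF4 mutant (11.1%) with a median of 0.24. Some of these markers moved with genotype themselves, as given above. With a single factor per library, this scaling cannot take out RNA of other cells.

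**Figure D3:**
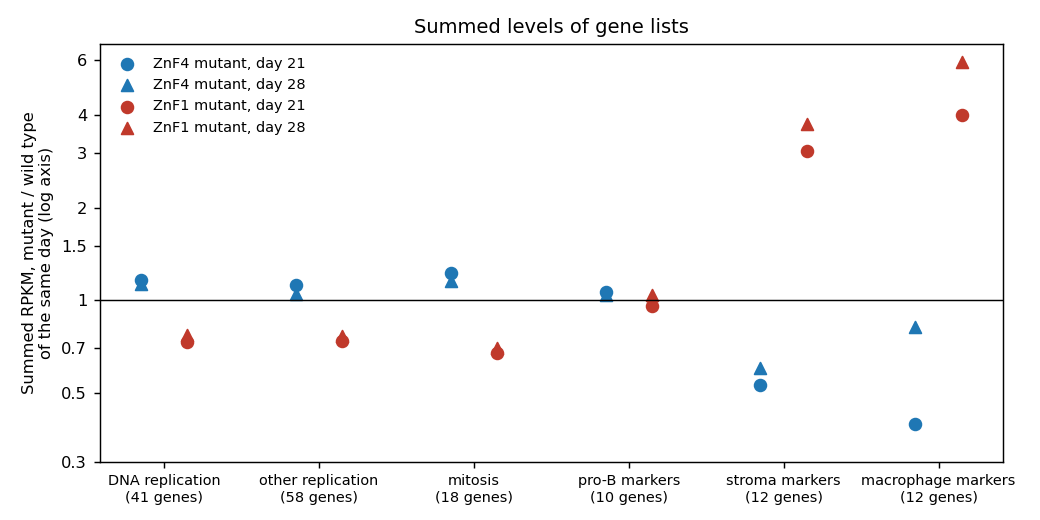
Summed RPKM of a gene list in a mutant library divided by that in the wild type library of the same day, on a log axis, with the ZnF4 mutant left of the ZnF1 mutant in each list and days shown by symbol. The DNA replication genes sit at 1.13 to 1.16 in the ZnF4 mutant and 0.732 to 0.772 in the ZnF1 mutant, the pro-B markers near 1, and the macrophage and the stroma and endothelium lists on the opposite side of 1 from the replication genes in every mutant library.

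The 10 licensing genes among the members were all called lower in the ZnF1 mutant, with a median difference of -0.41. Of 15 further genes of licensing and firing, part of a list described below, 10 were called lower there, with a median of -0.35. Among the 10 members Cdt1 alone was called in the ZnF4 mutant, where their median was 0.19. A share of 1 of 10 is near that of all tested genes. For this and each role group below, 15.2% of all tested genes were called lower in the ZnF1 mutant. In the ZnF4 mutant 10.9% of all tested genes were called higher. Mcm5 had the smallest p of the 10 licensing members in the ZnF1 mutant. It had 132.7 and 140.2 RPKM in the ZnF4 libraries at day 21 and day 28, 82.9 and 82.1 RPKM in the ZnF1 libraries, and 118.0 and 119.6 RPKM in wild type. The ZnF1 libraries were below and the ZnF4 libraries above wild type, with no overlap, and the differences were -0.52 ± 0.07 in the ZnF1 mutant (adjusted p = 0.0044) and 0.20 ± 0.07 in the ZnF4 mutant (adjusted p = 0.118). Mcm2, another helicase subunit, had 147.2 and 157.6 RPKM in the ZnF4 libraries, 97.9 and 100 RPKM in the ZnF1 libraries, and 132.7 and 129.8 RPKM in wild type. It fell by 0.40 ± 0.07 in the ZnF1 mutant (adjusted p = 0.0116), and the ZnF4 difference of 0.21 ± 0.07 did not pass (adjusted p = 0.112).

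The 6 subunits of MCM2-7 form a ring in which each is present once, and their transcripts kept one order in all 6 libraries: Mcm3, then Mcm6, Mcm2, Mcm5, Mcm4 and Mcm7. The highest was 3.55 to 4.04 times the lowest on the RPKM scale, which is per length. Mcm3 had 215.8 and 206.3 RPKM in the ZnF4 libraries, 139.3 and 131.8 RPKM in the ZnF1 libraries, and 194.5 and 186.3 RPKM in wild type. Mcm7 had 56.5 and 58.1 RPKM in the ZnF4 libraries, 36.7 and 35.6 RPKM in the ZnF1 libraries, and 50.8 and 46.1 RPKM in wild type. All 6 subunits were called lower in the ZnF1 mutant, by -0.32 (Mcm6) to -0.52 (Mcm5), and 0 of 6 were called in the ZnF4 mutant, where the differences ran from 0.10 (Mcm4) to 0.24 (Mcm7). The subunits thus shifted by similar amounts while the order of their levels stayed the same.

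**Figure D4:**
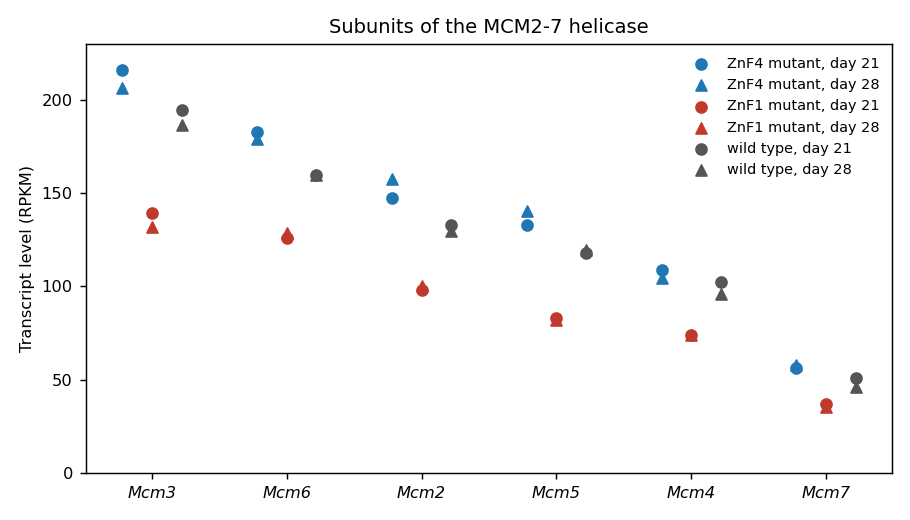
Level in RPKM of the 6 MCM2-7 subunits in each library, with the ZnF4 mutant, the ZnF1 mutant and wild type from left to right within a gene and days shown by symbol. For every subunit the ZnF1 libraries lie lowest, and the ZnF4 libraries lie above wild type.

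The loading factors Cdc6 and Cdt1 were both called in the ZnF1 mutant, and Cdt1 alone in the ZnF4 mutant. Cdc6, the ATPase that recruits MCM2-7 to origins, had 11.6 and 9.9 RPKM in the ZnF4 libraries, 6.9 and 7.8 RPKM in the ZnF1 libraries, and 9.9 and 10 RPKM in wild type. It fell by 0.39 ± 0.11 in the ZnF1 mutant (adjusted p = 0.0429), and its ZnF4 values overlapped wild type (0.10 ± 0.11, adjusted p = 0.606). Cdt1, the second loading factor, had 32.9 and 43.0 RPKM in the ZnF4 libraries, 20.2 and 25.5 RPKM in the ZnF1 libraries, and 24.2 and 29.7 RPKM in wild type. The ZnF4 mutant had the highest Cdt1 values and the ZnF1 values overlapped wild type, since day 28 was higher than day 21 in each genotype. With day in the model Cdt1 was called in both mutants, at 0.47 ± 0.07 in the ZnF4 mutant (adjusted p = 0.00999) and -0.23 ± 0.07 in the ZnF1 mutant (adjusted p = 0.0462).

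Of the origin recognition complex, which marks origins, Orc2 and Orc6 were measured among the members. Among the further genes described below, Orc3 and Orc5 were called lower in the ZnF1 mutant (-0.27 ± 0.08 and -0.43 ± 0.08). Orc1 and Orc4 were not called there (-0.35 ± 0.12, adjusted p = 0.071, and -0.13 ± 0.09, adjusted p = 0.282). Orc2 had 33.8 and 31.4 RPKM in the ZnF4 libraries, 22.3 and 24.8 RPKM in the ZnF1 libraries, and 32.3 and 35.2 RPKM in wild type. The ZnF1 libraries were lower (-0.50 ± 0.09, adjusted p = 0.0104), and the ZnF4 libraries overlapped wild type (-0.05 ± 0.09, adjusted p = 0.755). Orc6 had 42.7 and 38.8 RPKM in the ZnF4 libraries, 25.4 and 29.2 RPKM in the ZnF1 libraries, and 32.7 and 37.1 RPKM in wild type, and its ZnF1 difference of -0.34 ± 0.10 was called by the narrowest margin (adjusted p = 0.05 after rounding). Of the 10 licensing calls in the ZnF1 mutant, 1 (Mcm5) was kept without the day 21 ZnF1 library and 0 without the day 28 ZnF1 library or either wild type library (adjusted p of at most 0.309). The Cdt1 call in the ZnF4 mutant was lost when the day 21 wild type library (adjusted p = 0.113) or day 28 (adjusted p = 0.1305) or the day 28 ZnF4 library (adjusted p = 0.0644) was left out.

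The 3 members that act in turning the loaded helicase into an active one were lower in the ZnF1 mutant, 3 called of 3. Their median was -0.37. The GINS subunit genes Gins3 and Gins4, from the further genes described below, were not called there. Their differences were -0.414 ± 0.145 (adjusted p = 0.0758) and -0.118 ± 0.075 (adjusted p = 0.261). In the ZnF4 mutant Gins4 was called higher (0.336 ± 0.075, adjusted p = 0.0379) and Gins3 was not called. Gins1, a subunit of the GINS complex that joins MCM2-7 at the fork, had 43.0 and 40.6 RPKM in the ZnF4 libraries, 24.4 and 26.7 RPKM in the ZnF1 libraries, and 35.9 and 35.6 RPKM in wild type. It fell by 0.47 ± 0.08 in the ZnF1 mutant (adjusted p = 0.00892), and the ZnF4 difference was 0.22 ± 0.08 (adjusted p = 0.123). Gins2 had 48.1 and 53.7 RPKM in the ZnF4 libraries, 34.6 and 36.5 RPKM in the ZnF1 libraries, and 41.4 and 44.0 RPKM in wild type, with -0.26 ± 0.07 in the ZnF1 mutant (adjusted p = 0.0321). Mcm10, which is needed for origin firing and is no part of the ring, was called in both mutants. It had 41.3 and 40.3 RPKM in the ZnF4 libraries, 26 and 25.2 RPKM in the ZnF1 libraries, and 33.4 and 33.2 RPKM in wild type, with 0.29 ± 0.06 in the ZnF4 mutant (adjusted p = 0.0379) and -0.37 ± 0.06 in the ZnF1 mutant (adjusted p = 0.0103). Of the 3 ZnF1 calls, 1 (Gins1) was kept without the day 28 ZnF1 library and 0 without the day 21 ZnF1 library or either wild type library (adjusted p of at most 0.225). The ZnF4 call of Mcm10 was lost when any 1 of the 6 libraries was left out (adjusted p of 0.094 to 0.284).

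The clamp and its loader moved less evenly. Of the 6 genes, 3 were called lower in the ZnF1 mutant (Pcna, Rfc3 and Rfc4; median over the 6 of -0.30) and 1 higher in the ZnF4 mutant (Rfc1). Pcna, the sliding clamp that holds polymerases on DNA, had 40.6 and 37.5 RPKM in the ZnF4 libraries, 29.2 and 27.1 RPKM in the ZnF1 libraries, and 38.6 and 33.0 RPKM in wild type. The ZnF1 libraries were the lowest (-0.33 ± 0.07, adjusted p = 0.0177), and the ZnF4 libraries overlapped wild type (0.13 ± 0.07, adjusted p = 0.284). Rfc1, the large subunit of the loader, had 56.5 and 46.6 RPKM in the ZnF4 libraries, 33.0 and 30.9 RPKM in the ZnF1 libraries, and 39.3 and 36.4 RPKM in wild type, and rose by 0.43 ± 0.08 in the ZnF4 mutant (adjusted p = 0.0199). Its ZnF1 difference of -0.24 ± 0.08 did not pass (adjusted p = 0.0612).

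The small loader subunits were not all called in the ZnF1 mutant, and differences among them were not tested. Rfc2 had 80.4 and 81.7 RPKM in the ZnF4 libraries, 67.5 and 77.2 RPKM in the ZnF1 libraries, and 68.9 and 75.7 RPKM in wild type, so that ZnF1 and wild type values overlapped (-0.0006 ± 0.07, adjusted p = 0.998). Rfc3 had 64.5 and 62.0 RPKM in the ZnF4 libraries, 33.1 and 47.1 RPKM in the ZnF1 libraries, and 52.8 and 63.4 RPKM in wild type, with -0.54 ± 0.14 in the ZnF1 mutant (adjusted p = 0.0318). Rfc5 had the lowest level of the loader, at 10.2 and 9.6 RPKM in the ZnF4 libraries, 6.3 and 8.9 RPKM in the ZnF1 libraries, and 8.7 and 9.7 RPKM in wild type, and passed in neither mutant (adjusted p = 0.689 in the ZnF4 mutant and 0.188 in the ZnF1 mutant). Of the 3 ZnF1 calls of this group, 2 (Rfc3 and Rfc4) were kept without the day 28 ZnF1 library and 0 without the day 21 ZnF1 library or either wild type library (adjusted p of at most 0.261). The Rfc1 call in the ZnF4 mutant was lost when either wild type library (adjusted p of 0.147 and 0.209) or either ZnF4 library (adjusted p of 0.0522 and 0.0768) was left out.

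Of the 8 genes for primase and the replicative polymerases, 6 were called lower in the ZnF1 mutant (median over the 8 of -0.35), and 2, Pola1 and Pold2, were called higher in the ZnF4 mutant (median 0.20). Pole, the catalytic subunit of the leading-strand polymerase epsilon, had 38.1 and 38.0 RPKM in the ZnF4 libraries, 24.5 and 23.1 RPKM in the ZnF1 libraries, and 35.0 and 34.7 RPKM in wild type. The days agreed closely and the genotypes did not overlap, with -0.53 ± 0.07 in the ZnF1 mutant (adjusted p = 0.00352) and 0.12 ± 0.07 in the ZnF4 mutant (adjusted p = 0.271). Pola1 had 37.0 and 32.6 RPKM in the ZnF4 libraries, 21.7 and 20.9 RPKM in the ZnF1 libraries, and 27.2 and 26.8 RPKM in wild type. It was called in both mutants, at 0.35 ± 0.07 in the ZnF4 mutant (adjusted p = 0.0316) and -0.33 ± 0.07 in the ZnF1 mutant (adjusted p = 0.0223).

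Against wild type, Pold1 was called in the ZnF1 mutant alone and Pold2 in the ZnF4 mutant alone. Both encode subunits of polymerase delta, which extends the lagging strand, and differences between them were not tested. Pold1, its catalytic subunit, had 61.8 and 77.6 RPKM in the ZnF4 libraries, 41.6 and 51.8 RPKM in the ZnF1 libraries, and 68.4 and 69.0 RPKM in wild type. It fell by 0.56 ± 0.10 in the ZnF1 mutant (adjusted p = 0.0113) and lay on both sides of wild type in the ZnF4 mutant (0.01 ± 0.10, adjusted p = 0.954). Pold2, the accessory subunit, had 115.2 and 144.6 RPKM in the ZnF4 libraries, 84.8 and 78.1 RPKM in the ZnF1 libraries, and 91.9 and 82.2 RPKM in wild type. Pold2 rose by 0.57 ± 0.13 in the ZnF4 mutant (adjusted p = 0.0448), the highest ZnF4 difference of the 41 genes, and overlapped wild type in the ZnF1 mutant (-0.09 ± 0.13, adjusted p = 0.612). Of the delta subunits among the further genes described below, Pold3 was called lower in the ZnF1 mutant (-0.29 ± 0.07) and higher in the ZnF4 mutant (0.28 ± 0.07). Pold4 was called higher in the ZnF1 mutant (0.33 ± 0.07) and was not called in the ZnF4 mutant. The primase subunits Prim1 and Prim2 had ZnF1 differences of -0.31 (adjusted p = 0.0999, not called) and -0.37 (adjusted p = 0.0186). Of the 6 ZnF1 calls of the group, 1 (Pold1) was kept without the day 28 wild type library, 1 (Pole) without either ZnF1 library, and 0 without the day 21 wild type library (adjusted p of at most 0.206). Pold2 was kept in the ZnF4 mutant without the day 21 ZnF4 library, and neither Pola1 nor Pold2 without any 1 of the other libraries (adjusted p of at most 0.315).

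Fen1 and Lig1, which trim and seal the Okazaki fragments of the lagging strand, were called in both mutants. Lig1, DNA ligase 1, had 131.7 and 115.5 RPKM in the ZnF4 libraries, 70.1 and 66.8 RPKM in the ZnF1 libraries, and 103.1 and 96.2 RPKM in wild type. The genotypes were well apart, with 0.31 ± 0.07 in the ZnF4 mutant (adjusted p = 0.041) and -0.53 ± 0.07 in the ZnF1 mutant (adjusted p = 0.00429). Fen1, the flap endonuclease, had 78.0 and 74.6 RPKM in the ZnF4 libraries, 50.4 and 48.6 RPKM in the ZnF1 libraries, and 60.4 and 57.5 RPKM in wild type, with 0.37 ± 0.06 in the ZnF4 mutant (adjusted p = 0.018) and -0.25 ± 0.06 in the ZnF1 mutant (adjusted p = 0.0323). Of the ZnF1 calls, 1 (Lig1) was kept without the day 28 ZnF1 library and 0 without the day 21 ZnF1 library or either wild type library (adjusted p of at most 0.224). Both ZnF4 calls were lost when any 1 of the 6 libraries was left out (adjusted p of at most 0.303).

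The RPA complex coats single-stranded DNA at the fork, and 0 of its 3 subunits were called in the ZnF4 mutant and 2 were called lower in the ZnF1 mutant. Rpa1, the large subunit, had 98.5 and 99.0 RPKM in the ZnF4 libraries, 66.3 and 69.5 RPKM in the ZnF1 libraries, and 91.5 and 94.2 RPKM in wild type (ZnF1 difference -0.45 ± 0.07, adjusted p = 0.00614; ZnF4 difference 0.09 ± 0.07, adjusted p = 0.422). Rpa2 had 50.9 and 53.0 RPKM in the ZnF4 libraries, 34.2 and 37.3 RPKM in the ZnF1 libraries, and 42.4 and 45.2 RPKM in wild type, a ZnF1 difference of -0.29 ± 0.06 (adjusted p = 0.0222) and a ZnF4 difference of 0.24 ± 0.06 (adjusted p = 0.06). Rpa3, the smallest subunit, did not follow the genotype. It had 27.7 and 31.3 RPKM in the ZnF4 libraries, 15.4 and 53.1 RPKM in the ZnF1 libraries, and 28.6 and 67.9 RPKM in wild type, so that day 28 was far above day 21 in the ZnF1 mutant and in wild type but not in the ZnF4 mutant. Its row is the shortest of the 41, at 642 bases, and its differences of -0.57 ± 0.35 in the ZnF4 mutant and -0.60 ± 0.35 in the ZnF1 mutant were not called (adjusted p = 0.337 and 0.229). The calls of Rpa1 and Rpa2 were both lost when any 1 wild type or ZnF1 library was left out (adjusted p of at most 0.195).

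The 3 members that supply deoxynucleotides were all called lower in the ZnF1 mutant, with a median of -0.55. In the ZnF4 mutant 0 of 3 were called (median 0.26). Of 8 further genes of nucleotide supply, part of a list described below, 4 were called lower in the ZnF1 mutant and 1 higher. The shares of all tested genes were 15.2% and 22.9%, and the median over the 8 was -0.34. Tyms, the thymidylate synthase that makes the DNA-specific nucleotide dTMP, had the largest ZnF1 difference of the 41 genes. It had 11.6 and 11 RPKM in the ZnF4 libraries, 3.3 and 4.7 RPKM in the ZnF1 libraries, and 7.2 and 9.6 RPKM in wild type, with -0.91 ± 0.14 in the ZnF1 mutant (adjusted p = 0.00715) and 0.40 ± 0.14 in the ZnF4 mutant (adjusted p = 0.121). Its mean level, 7.9 RPKM, was the lowest of the set. Rrm1 and Rrm2 form ribonucleotide reductase, and Rrm2 is the subunit whose supply is tied to S phase. Rrm1 had 177.8 and 164.4 RPKM in the ZnF4 libraries, 101.1 and 104.6 RPKM in the ZnF1 libraries, and 152.7 and 150.2 RPKM in wild type (ZnF1 difference -0.55 ± 0.08, adjusted p = 0.00505). Rrm2 had 144.6 and 148.8 RPKM in the ZnF4 libraries, 71.4 and 102.4 RPKM in the ZnF1 libraries, and 112.4 and 133.4 RPKM in wild type, with -0.51 ± 0.12 in the ZnF1 mutant (adjusted p = 0.0275) and 0.26 ± 0.12 in the ZnF4 mutant (adjusted p = 0.223). The Rrm1 to Rrm2 ratio of RPKM was 1.23 and 1.10 in the ZnF4 libraries, 1.42 and 1.02 in the ZnF1 libraries, and 1.36 and 1.13 in wild type, and moved with the day in each genotype. The 3 ZnF1 calls were kept without the day 28 ZnF1 library and lost without the day 21 ZnF1 library or either wild type library (adjusted p of at most 0.195).

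Of the 4 drivers of the G1 to S step, the cyclin E genes and E2f2 were called lower in the ZnF1 mutant and E2f1 was not, and 0 of 4 were called in the ZnF4 mutant. Ccne1, the cyclin E1 partner of Cdk2, had 38.3 and 34.6 RPKM in the ZnF4 libraries, 19.6 and 19.2 RPKM in the ZnF1 libraries, and 32.1 and 30.6 RPKM in wild type. It had the smallest ZnF1 p of the 41 genes (-0.66 ± 0.07, adjusted p = 0.00211), was the one ZnF1 call kept without any 1 of the 6 libraries and under the 9 other settings tried, and had a ZnF4 difference of 0.21 ± 0.07 (adjusted p = 0.101). Ccne2, cyclin E2, had 38.8 and 33.0 RPKM in the ZnF4 libraries, 20.4 and 22.4 RPKM in the ZnF1 libraries, and 33.9 and 33.5 RPKM in wild type. The ZnF1 difference was -0.63 ± 0.10 (adjusted p = 0.00788), while the ZnF4 values lay on both sides of wild type (0.08 ± 0.10, adjusted p = 0.629).

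E2f1 and E2f2 encode activating E2F factors, which switch on many of the other genes described here. E2f1 had 19.2 and 20.0 RPKM in the ZnF4 libraries, 16.9 and 16.2 RPKM in the ZnF1 libraries, and 15.3 and 16.2 RPKM in wild type. It was the one member whose ZnF1 difference lay above 0 (0.07 ± 0.07, adjusted p = 0.512), and its ZnF4 difference of 0.30 ± 0.07 missed the threshold (adjusted p = 0.0515). E2f2 had 36.6 and 32.1 RPKM in the ZnF4 libraries, 21.9 and 28.4 RPKM in the ZnF1 libraries, and 35.7 and 34.3 RPKM in wild type. Its ZnF1 difference was -0.47 ± 0.14 (adjusted p = 0.0488) and its ZnF4 difference -0.03 ± 0.14 (adjusted p = 0.911). Without a wild type library or the day 21 ZnF1 library, Ccne1 was the one of the 3 calls in the ZnF1 mutant that was kept (adjusted p of at most 0.290 for the others). Without either ZnF4 library E2f2 alone was lost (adjusted p = 0.0623 and 0.0619).

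Chaf1a and Chaf1b encode subunits of CAF-1, which is recruited by PCNA and places histones on new DNA. Chaf1b had 42.7 and 41.5 RPKM in the ZnF4 libraries, 26.9 and 27.3 RPKM in the ZnF1 libraries, and 35.8 RPKM in both wild type libraries. The ZnF1 difference was -0.39 ± 0.06 (adjusted p = 0.00886), and the ZnF4 difference of 0.23 ± 0.06 was not called (adjusted p = 0.0711). Chaf1a had 58.3 and 51.9 RPKM in the ZnF4 libraries, 31.3 and 32.5 RPKM in the ZnF1 libraries, and 42.5 and 44.8 RPKM in wild type, with -0.44 ± 0.09 in the ZnF1 mutant (adjusted p = 0.0144) and 0.33 ± 0.09 in the ZnF4 mutant (adjusted p = 0.0568). Both ZnF1 calls were lost when any 1 wild type or ZnF1 library was left out (adjusted p of at most 0.152).

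**Figure D5:**
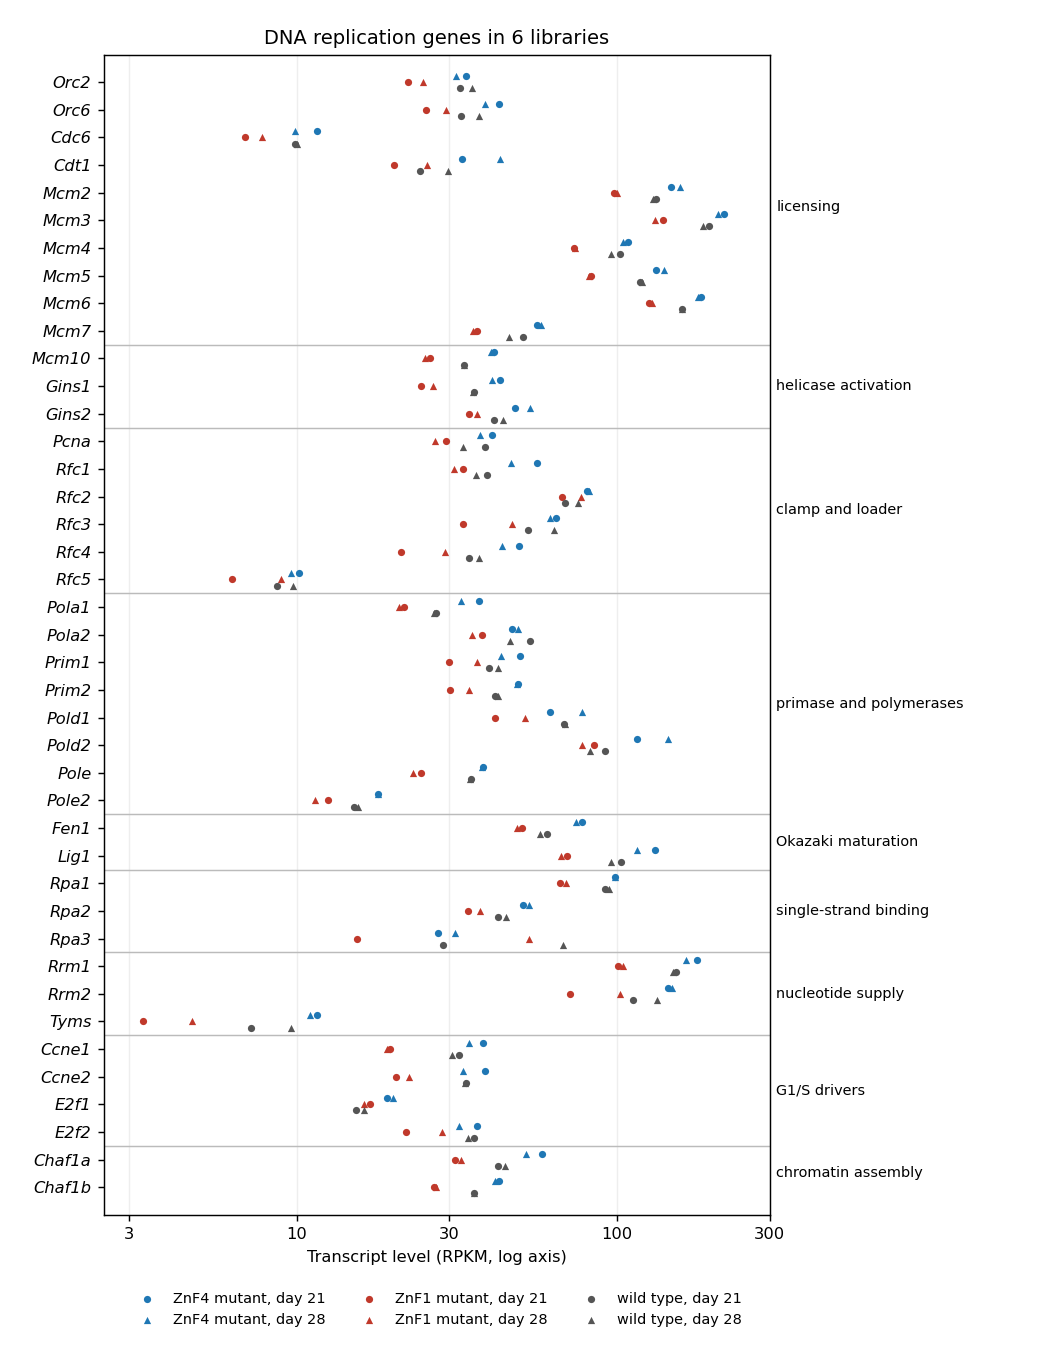
Level in RPKM, on a log axis, of all 41 genes in the 6 libraries, grouped by role, with the ZnF4 mutant above the ZnF1 mutant and wild type in each row and days shown by symbol. For 40 of 41 genes both ZnF4 points lie right of both ZnF1 points, the exception being Rpa3.

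Set against each other, the mutants lay further apart than either did from wild type by the median over the set. For each gene this difference equals the ZnF4 difference from wild type minus the ZnF1 difference. With medians on opposite sides of 0, the wider gap largely follows from them and is no separate result. Of the 41 genes 36 were called higher in the ZnF4 mutant than in the ZnF1 mutant (22.3% of all tested genes) and 0 lower (23.2%). The median difference was 0.62, against 0.03 over all tested genes, and all 41 lay above 0 (53.6% of all tested genes). Within days the median was 0.65 at day 21 and 0.57 at day 28. The largest was Tyms (1.31 ± 0.14, adjusted p = 0.00165), and Ccne1 had the smallest p (0.87 ± 0.07, adjusted p = 0.000771). The 5 genes not called were Rfc2, Rfc5, Rpa3, E2f1 and E2f2. Both ZnF4 libraries lay above both ZnF1 libraries for 40 of 41 genes (37.0% of all tested genes). Between 27 and 36 genes were called higher with any 1 library left out, when 8.33% to 16.5% of all tested genes were.

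The day of culture changed the set little. At day 28 against day 21, 0 of 41 genes and 0.0% of all tested genes were called by limma, and 5 of 41 had an unadjusted p below 0.05, against 14.3% of all tested genes. The 5 were Cdt1 (0.33 ± 0.05), Rpa3 (1.04 ± 0.29), Pold1 (0.22 ± 0.08), Rrm2 (0.27 ± 0.10) and Pcna (-0.15 ± 0.06). With no filter on low values 9 of 22098 genes were called and 0 of the 41. The median size of the change between days was 0.0809 in the ZnF4 mutant, 0.104 in the ZnF1 mutant and 0.0775 in wild type over the members, and 0.120, 0.128 and 0.112 over all tested genes. With a single library for each genotype and day, no test of whether a genotype difference varied between the days was possible.

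A further 58 genes of replication, checkpoint and S phase control that are no members had medians on the same sides of 0 as the members, with exceptions among the genes. This list and the mitosis list below were also chosen with earlier results of these data known. In the ZnF1 mutant 41 of 58 were called lower and 2 higher (15.2% and 22.9% of all tested genes), with a median of -0.36. Those with the smallest p were E2f7 and E2f8 (-0.63 ± 0.07 and -0.70 ± 0.09, adjusted p = 0.00297 and 0.00347), which encode repressive E2F factors, Atad5 (-0.57 ± 0.07, adjusted p = 0.00425), which unloads PCNA, and Ccna2 (-0.60 ± 0.08, adjusted p = 0.00454), the S phase cyclin A2. The 2 higher genes were Samhd1 and Pold4 (0.33 ± 0.07, adjusted p = 0.0237). Samhd1, an enzyme that breaks down deoxynucleotides and is known to be abundant in macrophages, had 6.0 and 6.5 RPKM in the ZnF4 libraries, 38.1 and 35.1 RPKM in the ZnF1 libraries, and 13.5 and 11.3 RPKM in wild type. It rose by 1.49 ± 0.10 in the ZnF1 mutant (adjusted p = 0.00102) and fell by 0.88 ± 0.10 in the ZnF4 mutant (adjusted p = 0.00578), the same directions as the macrophage markers.

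Of the 58, 9 were called higher and 3 lower in the ZnF4 mutant (10.9% and 7.32% of all tested genes). The median was 0.12, against 0.02 over all tested genes. E2f7 (0.48 ± 0.07, adjusted p = 0.0121), the origin-firing kinase gene Cdc7 (0.51 ± 0.09, adjusted p = 0.0205), Mtbp (0.44 ± 0.08, adjusted p = 0.0233) and the thymidine kinase gene Tk1 (0.49 ± 0.10, adjusted p = 0.031) were higher. Besides Samhd1, E2f8 (-0.47 ± 0.09, adjusted p = 0.0216) and the deoxycytidine kinase gene Dck (-0.45 ± 0.10, adjusted p = 0.0399) were lower. E2f8 had 45.1 and 38.2 RPKM in the ZnF4 libraries, 35.7 and 35.0 RPKM in the ZnF1 libraries, and 57.5 and 58.2 RPKM in wild type, so it was lower in both mutants, whereas E2f7 lay on opposite sides of wild type. Of the 43 ZnF1 calls, 3 were kept without the day 21 wild type library, 2 without that of day 28, 4 without the day 21 ZnF1 library and 11 without that of day 28. Of the 12 ZnF4 calls, 0 were kept without either wild type library, 2 without either ZnF4 library and 7 without either ZnF1 library.

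A list of 18 mitosis genes, which act after replication is complete, lay on the same sides. The ZnF1 mutant had 17 of 18 called lower (15.2% of all tested genes), with a median of -0.53. Mki67, the proliferation marker Ki-67, led them (-0.63 ± 0.08, adjusted p = 0.00319). The ZnF4 mutant had 5 of 18 called higher (10.9% of all tested genes), with a median of 0.26. Their sum was 1580 and 1459 RPKM in the ZnF4 libraries, 868.1 and 881.9 RPKM in the ZnF1 libraries, and 1287 and 1262 RPKM in wild type, with no overlap between genotypes. Without the day 21 or day 28 wild type library, 0 and 2 of the 17 ZnF1 calls were kept, and without the day 21 or day 28 ZnF1 library, 1 and 7. All 5 ZnF4 calls were lost without either wild type or either ZnF4 library, and 1 and 2 were kept without the ZnF1 libraries.

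Several members have rows or neighbours that limit how exactly a value belongs to them. Of the 41 genes 8 had further transcript rows, and 5 of these 9 rows reached 1 RPKM (Ccne2, Gins1, Orc2, Orc6 and Pola2). All 5 lay below 0 in the ZnF1 mutant, and 2 lay above 0 in the ZnF4 mutant. The library protocol names no step that marks the strand, and in the GENCODE M21 annotation 12 members have exons that overlap a gene on the other strand: Orc2, Orc6, Mcm7, Gins2, Rfc2, Rfc4, Rfc5, Pole, Fen1, Lig1, Ccne2 and Chaf1a. Reads of both genes cannot be told apart there. Pole2 and Rpa1 overlap a gene on the same strand, and Pcna and Tyms have named pseudogenes with which they could share reads, so the values of these 4 genes are uncertain to that extent.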

How the data were processed

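Poly(A) RNA was enriched with a purification kit, and Illumina libraries were prepared from fragmented double-stranded cDNA, per the labels' protocols. The authors deposited 1 table of RPKM values per RefSeq transcript, made with TopHat and bedtools on mouse build mm9, per the submitters' processing notes; versions, annotation release and read depth are not given in the sources used here, so no counting interval can be given. Values were used as deposited RPKM, as log2(RPKM + 1), with the row of highest mean for each of 22098 symbols and 1 stray row left out. On this scale, with a pseudocount of 1, the change of low genes is understated. Genes with at least 1 RPKM in at least 2 of 6 libraries (11379) were fitted with limma 3.58.1 (R 4.3.3), with genotype and day as terms and a mean-variance trend (2 residual and 3.22 prior degrees of freedom). The labels give day as the shared number of the libraries, and day changes correlated between genotypes across genes (Pearson 0.433, 0.249 and 0.226; genes are not independent), so day stayed in the model. The largest share of identical values in 2 libraries was 5.61%. The steps were tested on simulated data. Alternatives changed the pseudocount, filter, scaling, row choice, trend and day term, or left out 1 library. The members and lists were chosen with earlier results of these data known. Genes given with full values were a set of 10, those with the smallest and largest p per role and mutant, and some picked later to show a complex or an exception (Mcm3, Mcm7, Rfc3, Prim1, Prim2). Promoters come from a table of another build (GRCm38.p6) than the values, so no other coordinates are given. Of the further replication genes, the 4 with the smallest p per mutant and direction were named, and Ticrr was not used here.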

Additional observations from a re-analysis of the deposited data

Results flagged for a closer look

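With 1 library per genotype and day, a mutant could lie on opposite sides of its reference at the 2 days. This happened for few of the 41 genes, and whether the days differed was not tested. In the ZnF4 mutant against wild type 8 genes did so (26.6% of all tested genes). The differences at day 21 and day 28 were 0.0636 and -0.16 for Orc2, 0.209 and -0.0132 for Cdc6, 0.284 and -0.0317 for Rfc3, and 0.207 and -0.0135 for Rfc5. They were -0.186 and 0.0889 for Pola2, -0.144 and 0.167 for Pold1, 0.19 and -0.0211 for Ccne2, and 0.035 and -0.0928 for E2f2. In the ZnF1 mutant against wild type Rfc2 did so, with -0.0292 at day 21 and 0.0279 at day 28 (13.3% of all tested genes). Rpa3 did so between the ZnF4 and the ZnF1 mutant, with 0.807 at day 21 and -0.744 at day 28 (17.2% of all tested genes). None of these genes was called in the comparison in which its sign changed.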

How the results depend on the processing

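Under the alternatives, the median over the 41 genes kept its direction in the 3 genotype comparisons. In the ZnF1 mutant 34 genes were called lower, 27 without day as a replicate block (10.9% of all tested genes), 16 with no filter on low values (2.82%), and 1 to 35 with 1 library left out (1.1% to 17.9%). The median was -0.33 with pro-B marker scaling and -0.34 to -0.47 with 1 library left out. The ZnF4 mutant had 7 genes called higher, 4 without day as a replicate block (8.79% of all tested genes), 3 with no filter (1.33%), 4 without the trend (10.7%), and 0 to 2 with 1 library left out (2.09% to 8.67%), where the median was 0.15 to 0.25. Without the block or the trend, 4 of 41 is a share near that of all tested genes. Between the ZnF4 and the ZnF1 mutant the median was 0.54 with quantile scaling and 0.56 with pro-B marker scaling. For day 28 against day 21 it was 0.0163, and became -0.0426 with quantile, -0.0372 with median-of-ratios and 0.0788 with pro-B marker scaling. Quantile scaling moved the calls over all tested genes in the ZnF1 mutant to 2047 higher and 2913 lower, against 2606 and 1730, and those of the ZnF4 against the ZnF1 mutant to 3431 and 2359, against 2540 and 2637; it left 32 members called lower in the ZnF1 mutant. Pro-B marker scaling moved these calls to 2804 and 933 and to 1901 and 2780. Some small differences that were not called changed sign. In the ZnF1 mutant Rfc2 became 0.115, 0.0004 and 0.0786 with quantile, median-of-ratios and pro-B marker scaling, and Pold2 0.0216 with quantile scaling. With 1 library left out these ranged from -0.057 to 0.0557 for Rfc2 and from -0.225 to 0.0378 for Pold2. In the ZnF4 mutant Pold1 became -0.0135 with median-of-ratios scaling. The ranges there with 1 library left out were -0.141 to 0.164 for Pold1, -0.0488 to 0.245 for Cdc6, -0.0574 to 0.226 for Ccne2, -0.088 to 0.282 for Rfc5, -1.22 to 0.0812 for Rpa3, -0.197 to 0.139 for E2f2 and -0.167 to 0.0702 for Orc2. The causes of these changes were not tested. The depth is unknown.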
